A study of Mus musculus with 16 samples.

Results

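The 40 genes described here drive, restrain or mark passage through the cell cycle in mouse liver. Of these, 11 were listed under G1 and entry into S phase, 14 under DNA replication and nucleotide supply, and 15 under mitosis. They were taken by symbol from the deposited gene tables, which hold 55487 gene rows, and all 40 were found. Each was placed in a single phase by convention, although some act in other phases as well. Of the 40, 34 passed the filter on low counts and were tested: 10 of the G1 members, 13 of the S phase members and 11 of the mitosis members. The other 6, E2f7, Cdc6, Mybl2, Bub1, Aurkb and Plk1, had too few reads and are given by level only.

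The livers came from C57/Bl6J mice fed HFD (high-fat diet), in which hepatocytes were altered in the spliceoforms of JNK (c-Jun N-terminal kinase, a stress-activated kinase). Every library carries the genotype label J1 J2 lf/lf, and the 3 groups differ by the name in their titles. The 6 Flpo livers are the 7b group (LJ1J27b), the 5 Cre livers are the 7a group (LJ1J27a) and the 5 GFP livers are the control (LJ1J2control). All 3 groups share the allele label, strain and diet. The sources used here state neither how each protein was brought into hepatocytes nor the age of the mice, and the alteration is named as specific to hepatocytes while the RNA is from whole liver. Gene rows sum over spliceoforms, so they do not check which JNK form a liver made: Mapk8 (JNK1) spanned 12.5 to 14.6 CPM (counts scaled to library size) in Flpo livers, 8.32 to 15.1 in Cre livers and 8.12 to 15.1 in GFP livers, and Mapk9 (JNK2) 40.5 to 51.2, 28.3 to 41.7 and 23.3 to 61.7 CPM in the same order of groups.

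Library totals ran between 27929393 and 36043322 counts. The 8 hepatocyte markers, albumin among them, summed to 70125 to 84165 TPM (abundance scaled to gene length and library) in Flpo livers, 66248 to 95932 in Cre livers and 75310 to 84751 in GFP livers. Genes of the major urinary protein family (Mup) took 1.95% to 6.49% of counts in Flpo livers, 5.65% to 13.8% in Cre livers and 2.24% to 3.91% in GFP livers. Such a share lowers every other gene on the TPM scale, so fold changes and CPM below use TMM-scaled library sizes, a scaling that allows for this. The labels do not say that replicates of a group came from separate animals, and p-values measure the spread between these samples. In whole tissue, fewer cells of a type and less RNA per cell cannot be told apart.

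A cell that leaves rest makes D-type and then E-type cyclins, which switch on cyclin-dependent kinases; these release E2F transcription factors from their RB-family partners, and E2F factors raise the genes for DNA replication. Later, the MuvB complex with MYBL2 and FOXM1 raises the genes for mitosis. Hepatocytes of the adult liver divide rarely, often hold more than the usual number of genome copies, and can enter S phase in response to loss of tissue or injury.

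The 3 phases sat at different levels. On the TPM scale, which allows for gene length, the median over members of the mean level across all 16 livers was 4.14 TPM for G1, 1.45 TPM for S phase and 0.267 TPM for mitosis, beside 5.13 TPM for all 13905 genes tested. A mean of at least 1 TPM was reached by 8 of 11 G1 members, 11 of 14 S phase members and 1 of 15 mitosis members. That mitosis member was Aurka, the centrosomal kinase Aurora A, at 1.28 TPM. The highest of the 40 by mean level was Cdk4, the kinase partner of D-type cyclins, at 23.7 TPM. Next came Pcna, the sliding clamp of DNA polymerase, at 19.1 TPM, and Cdkn1a, an inhibitor of cyclin-dependent kinases, at 18.2 TPM. Cyclin D1 (Ccnd1) followed at 13.5 TPM, thymidine kinase (Tk1) at 10.9 TPM and the inhibitor Cdkn1b at 8.11 TPM. The levels of Pcna and Cdkn1a, neighbours in this order, overlapped widely: Pcna spanned 15.0 to 22.0 TPM over the 16 livers and Cdkn1a 3.58 to 65.6 TPM. At the bottom, E2f7, which represses E2F targets, averaged 0.0303 TPM and was listed at 0 in 4 livers. Mki67, the standard marker of cycling cells, averaged 0.125 TPM.

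**Figure D1:**
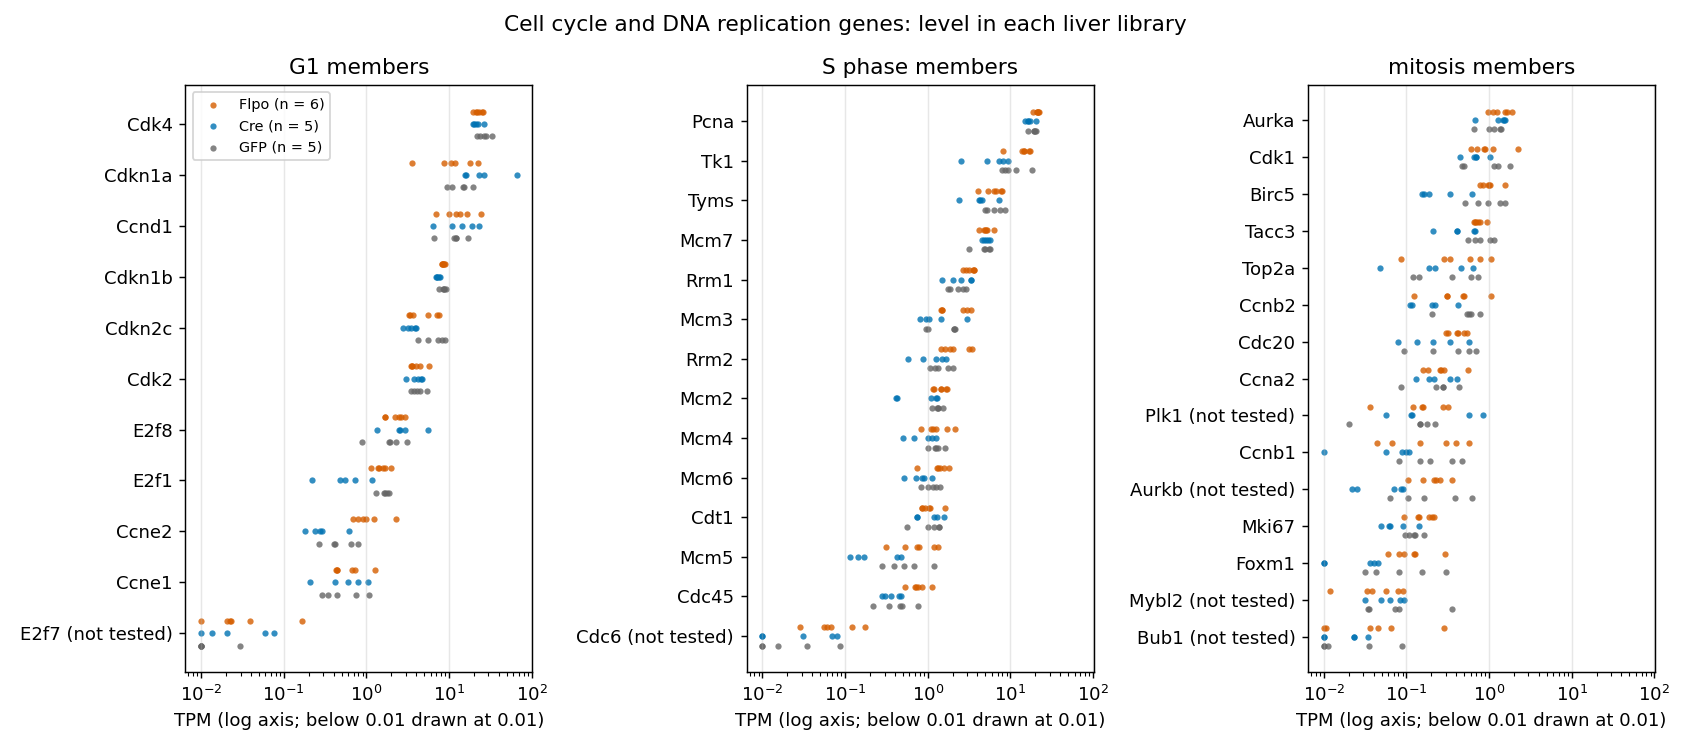
Level of each of the 40 members in each liver (TPM, log axis, values below 0.01 drawn at 0.01), with Flpo above Cre above GFP in each row and 1 point per library. G1 members reach a mean of 23.7 TPM for Cdk4, while mitosis members lie at or below a mean of 1.28 TPM.

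Spread within a group was widest among the mitosis members. The median coefficient of variation over the tested mitosis members was 48.4% in Flpo livers, 49.3% in Cre livers and 44.6% in GFP livers. For S phase members it was 24.7%, 33.1% and 26.0%, in the same order of groups. Several mitosis members rest on few reads: Foxm1 had a mean of 9.40 counts per library and Ccnb1 8.62, against 988 for Cdk4.

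Sequence elements known for genes of these phases were searched in the start regions of the members. Of the 40, 34 matched RefSeq (GRCm38.p6) windows, 37 in all, each of 300 bases with 250 before and 50 after an annotated gene start; the other 6 were Aurkb, Ccna2, Ccnd1, Ccne2, Foxm1 and Mcm4. An E2F-like motif, searched as TTTNNCGC on both strands, was found in 7 of 14 S phase windows (50%), 2 of 11 G1 windows (18.2%) and 1 of 12 mitosis windows (8.33%), beside 5.17% of all 32851 windows. The cell cycle homology region (CHR), the element bound by MuvB, searched as TTTGAA on both strands, was found in 7 of 12 mitosis windows (58.3%), 2 of 14 S phase windows (14.3%) and 1 of 11 G1 windows (9.09%), beside 17.9% of all windows. The CCAAT box was in 9 of 12 mitosis windows, 10 of 14 S phase windows and 5 of 11 G1 windows, and in 37.4% of all windows. E2F-like matches on opposite strands can share bases and then count as separate matches, as in Mcm5; E2F-like and CHR matches shared no base in these windows, and 1 E2F-like match shared a base with a CCAAT box. A match describes letters in the window and is not a measured binding site.

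Below are 5 windows, 5′ to 3′ on the strand of the gene, with E2F-like and CHR matches in capitals. Mcm5 and Cdk1 show the E2F-like element, Ccnb2 and Cdk1 the CHR, and Cdk1 is the one member window of 37 that holds both. E2f1 and Birc5 are shown because they were the members called in Cre livers against both other groups. These letters are not in their windows. The E2f1 window lies wholly inside the E2f1 gene as GENCODE annotates it (chr2:154559407-154569892, minus strand). The region before that gene start was not searched, so the window does not show whether that region holds these elements.
E2f1, chr2:154569377-154569676, minus strand: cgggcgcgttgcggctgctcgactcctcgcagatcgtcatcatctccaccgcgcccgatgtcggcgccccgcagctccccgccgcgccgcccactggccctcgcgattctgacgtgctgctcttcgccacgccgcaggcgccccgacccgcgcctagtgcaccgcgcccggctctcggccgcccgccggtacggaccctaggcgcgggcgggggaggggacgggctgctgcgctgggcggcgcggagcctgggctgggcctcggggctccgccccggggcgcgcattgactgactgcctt
Mcm5, chr8:75109259-75109558, plus strand: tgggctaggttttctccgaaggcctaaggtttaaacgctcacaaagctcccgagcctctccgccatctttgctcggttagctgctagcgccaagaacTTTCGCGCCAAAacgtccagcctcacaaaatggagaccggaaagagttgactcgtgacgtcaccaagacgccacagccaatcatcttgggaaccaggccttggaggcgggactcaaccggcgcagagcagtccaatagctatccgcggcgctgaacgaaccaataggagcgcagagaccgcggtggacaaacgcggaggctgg
Birc5, chr11:117848987-117849286, plus strand: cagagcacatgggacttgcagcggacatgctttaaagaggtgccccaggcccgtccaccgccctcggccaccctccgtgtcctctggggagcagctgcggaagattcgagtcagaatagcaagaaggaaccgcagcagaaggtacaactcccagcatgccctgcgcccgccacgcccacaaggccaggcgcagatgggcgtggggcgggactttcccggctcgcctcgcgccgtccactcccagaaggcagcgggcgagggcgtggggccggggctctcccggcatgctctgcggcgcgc
Ccnb2, chr9:70421505-70421804, minus strand: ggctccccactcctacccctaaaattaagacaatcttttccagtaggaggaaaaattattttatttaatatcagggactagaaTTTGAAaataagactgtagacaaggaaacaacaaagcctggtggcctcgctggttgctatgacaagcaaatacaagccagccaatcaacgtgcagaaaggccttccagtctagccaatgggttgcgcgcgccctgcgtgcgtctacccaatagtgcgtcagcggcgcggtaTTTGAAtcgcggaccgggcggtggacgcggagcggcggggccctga
Cdk1, chr10:69352863-69353162, minus strand: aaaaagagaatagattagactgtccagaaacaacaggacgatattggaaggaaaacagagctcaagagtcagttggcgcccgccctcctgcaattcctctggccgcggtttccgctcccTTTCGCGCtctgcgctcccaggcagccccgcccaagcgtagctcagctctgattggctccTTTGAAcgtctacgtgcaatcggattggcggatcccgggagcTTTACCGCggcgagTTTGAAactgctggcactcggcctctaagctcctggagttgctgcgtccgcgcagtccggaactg

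Across the comparisons, a gene was called when its adjusted p from edgeR's quasi-likelihood test with Benjamini-Hochberg adjustment over all 13905 genes was below 0.05. Flpo livers against Cre livers gave 6 called members of 34 (17.6%), 5 higher and 1 lower, where 13.7% of all genes tested were called (7.45% higher and 6.26% lower). Cre livers against GFP livers gave 3 of 34 (8.82%), all lower, where 9.55% of all genes were called (3.97% higher and 5.58% lower). Flpo livers against GFP livers gave 0 of 34, where 0.0288% of all genes were called. The shares of members called lay near those of all genes, so the counts by themselves do not set the members apart. Each group enters 2 of the 3 comparisons, so E2f1 and Birc5, called in both comparisons that use the Cre livers, were called on the same Cre libraries both times.

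**Figure D2:**
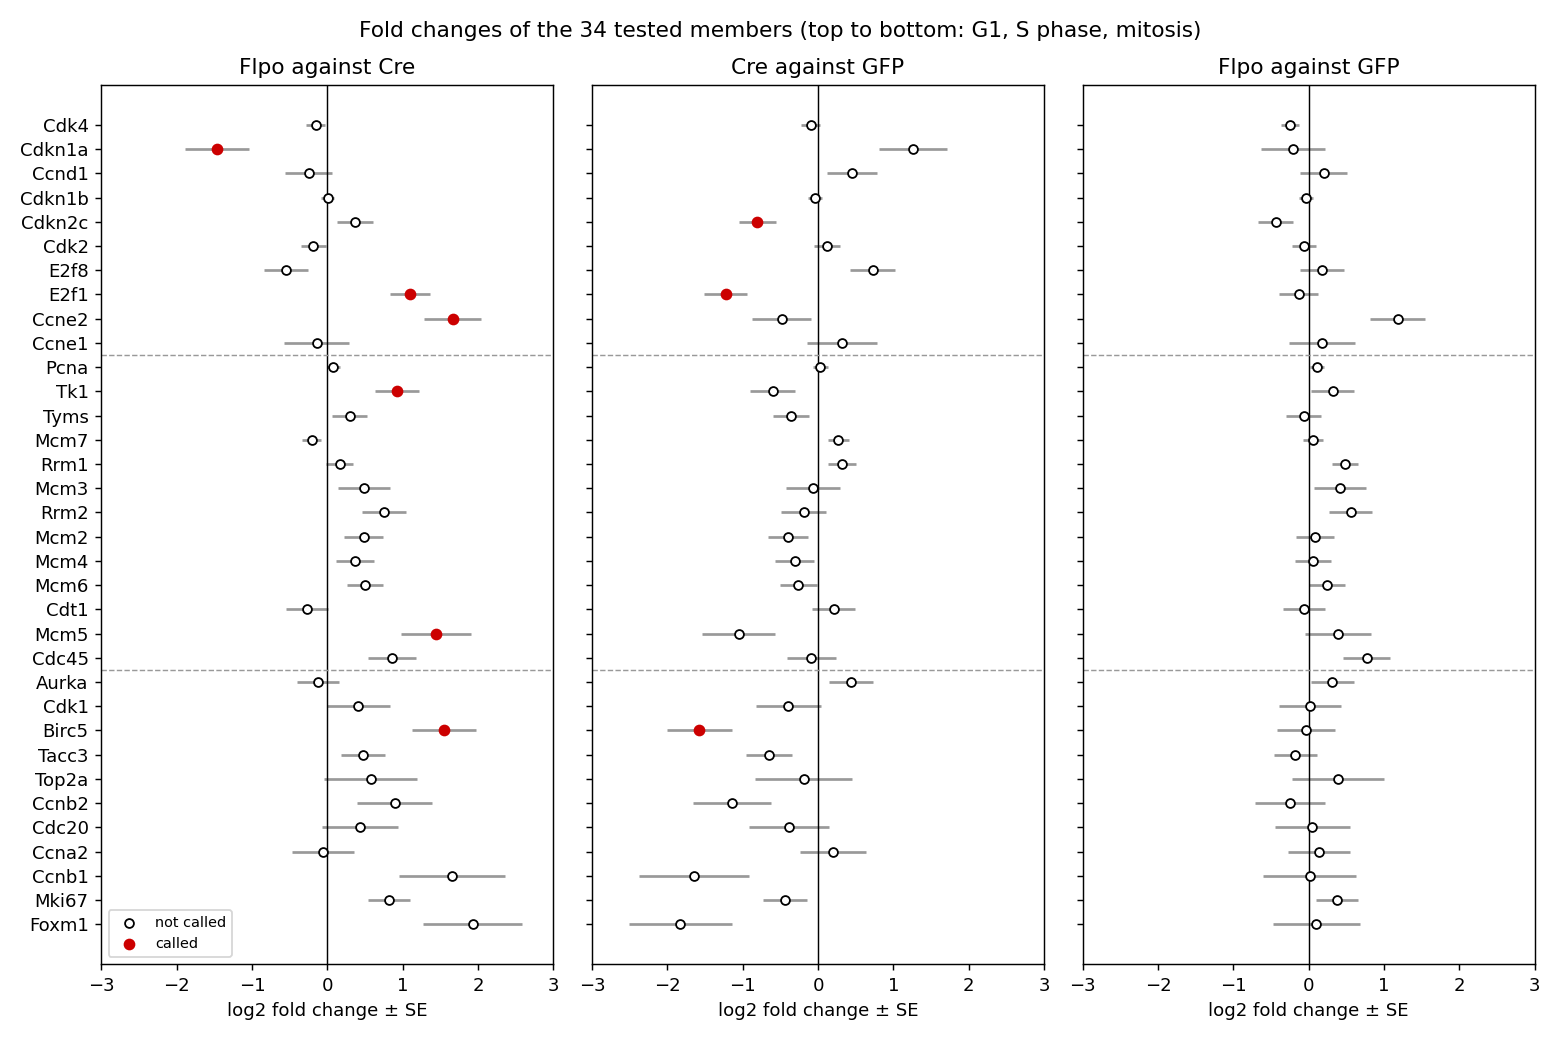
Log2 fold change with its SE for the 34 tested members in Flpo against Cre, Cre against GFP and Flpo against GFP livers; filled points were called, and dashed lines separate G1 (top), S phase and mitosis (bottom). Called members number 6, 3 and 0 in the 3 panels.

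Among the G1 members, E2f1 was lower in Cre livers than in both other groups. It encodes the founding E2F transcription factor (chr2:154559407-154569892, minus strand, GRCm38). In Flpo livers E2f1 spanned 2.39 to 4.18 CPM with a median of 3.32. In Cre livers it was 1.18, 1.83, 1.53, 2.50 and 0.549 CPM, and in GFP livers 3.87, 3.48, 4.11, 3.42 and 3.01 CPM. Every Cre liver lay below every GFP liver, and the highest Cre liver lay just above the lowest Flpo liver. E2f1 fell in Cre livers against GFP livers, with a log2 fold change of -1.23 (SE 0.28, adjusted p = 0.0104), and was the one tested member lower in every Cre library than in every GFP library, as 4.64% of all genes tested were. In Flpo livers it was higher than in Cre livers by 1.10 (SE 0.27, adjusted p = 0.0114). Both calls held in 26 of 26 alternative analyses.

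Ccne2 encodes cyclin E2, a partner of Cdk2 at entry into S phase (chr4:11191351-11204779, plus strand). It spanned 1.38 to 4.72 CPM in Flpo livers with a median of 1.94. In Cre livers it was 0.644, 0.575, 0.746, 1.23 and 0.432 CPM, and in GFP livers 0.507, 1.33, 0.905, 1.499 and 0.875 CPM. All 6 Flpo livers lay above all 5 Cre livers, while they overlapped the GFP livers. The log2 fold change in Flpo livers against Cre livers was 1.66 (SE 0.38, adjusted p = 0.00674), called in 26 of 26 alternatives. Against GFP livers it was 1.18 (SE 0.37, adjusted p = 0.323) and not called. Ccne2 and Birc5 were the 2 tested members with every Flpo library above every Cre library, as were 4.52% of all genes tested. The Ccne2 gene overlaps Ints8 on the other strand over 5622 bases, and the sources used here do not say whether counting used strand; Ints8 itself was not called in Flpo against Cre livers (log2 fold change -0.14, SE 0.18, adjusted p = 0.656).

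Cdkn1a encodes the cyclin-dependent kinase inhibitor that p53 raises (chr17:29090976-29100727, plus strand). Its levels spanned 5.12 to 30.3 CPM in Flpo livers with a median of 15.2. In Cre livers they were 25.7, 42.8, 27.5, 31.3 and 105 CPM, and in GFP livers 19.2, 20.8, 28.6, 14.3 and 14.0 CPM. Cre livers were the highest group and overlapped both others, and Cre replicate 5 stood far above the rest. Cdkn1a was lower in Flpo livers than in Cre livers by a log2 fold change of -1.47 (SE 0.43, adjusted p = 0.033). That call was lost when Cre replicate 2 or 5, or Flpo replicate 1, 3 or 5, was left out, with an adjusted p between 0.00931 and 0.107 over 26 alternatives. In Cre livers against GFP livers the log2 fold change was 1.26 (SE 0.45, adjusted p = 0.0927), called by DESeq2 alone among 26 alternatives, whose adjusted p ran between 0.0481 and 0.27.

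Cdkn2c, an inhibitor of the kinases that pair with D-type cyclins (chr4:109660876-109667189, minus strand), spanned 2.77 to 6.26 CPM in Flpo livers with a median of 3.81. In Cre livers it was 3.79, 3.73, 2.91, 2.62 and 3.34 CPM, and in GFP livers 7.07, 6.82, 5.04, 5.96 and 3.76 CPM. GFP replicate 5 lay within the Cre range and the other 4 GFP livers above it. It fell in Cre livers against GFP livers with a log2 fold change of -0.81 (SE 0.25, adjusted p = 0.0475). This call lies at the threshold and held in 12 of 26 alternatives, with an adjusted p of 0.0146 to 0.116.

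The remaining tested G1 members were not called in any comparison. Cyclin D1 averaged 40.5 ± 17.2 CPM in Flpo livers (SD, n = 6), 48.2 ± 18.2 CPM in Cre livers and 35.4 ± 12.1 CPM in GFP livers (SD, n = 5 each). Cdkn1b was the steadiest of the group, at 16.9 ± 0.647, 16.8 ± 2.01 and 17.3 ± 1.51 CPM in Flpo, Cre and GFP livers, with log2 fold changes of -0.04 to 0.00 in the 3 comparisons. E2f8, which with E2f7 represses E2F targets and is known for polyploid hepatocytes, had a log2 fold change of 0.72 in Cre against GFP livers (SE 0.30, adjusted p = 0.147), opposite in sign to that of E2f1. Ccne1, Cdk2 and Cdk4 had log2 fold changes between -0.25 and 0.32 over the 3 comparisons.

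**Figure D3:**
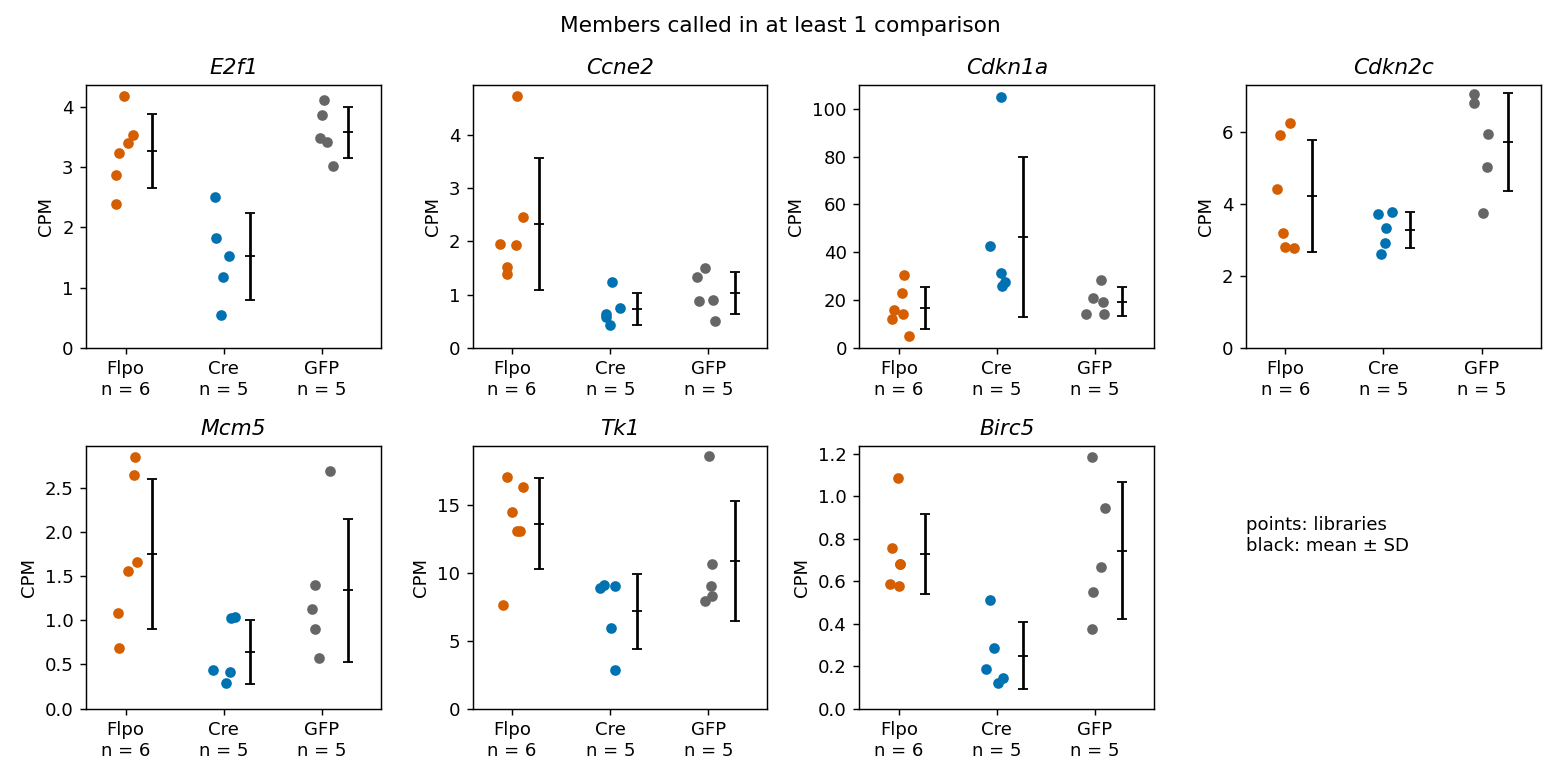
CPM of the 7 members called in at least 1 comparison, in Flpo (n = 6), Cre (n = 5) and GFP (n = 5) livers, with 1 point per library and the mean ± SD in black. Cre livers are the lowest group by mean for all but Cdkn1a, where 1 Cre library reaches 105 CPM.

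Among the S phase members, 2 of 13 were called, both in Flpo against Cre livers. Mcm5 encodes a subunit of the MCM helicase that unwinds DNA at the fork (chr8:75109569-75128439, plus strand), and its window above carries a pair of E2F-like matches on opposite strands. It spanned 0.687 to 2.85 CPM in Flpo livers with a median of 1.61. In Cre livers it was 0.286, 1.04, 0.410, 1.02 and 0.432 CPM, and in GFP livers 0.570, 1.13, 0.905, 1.40 and 2.69 CPM. Flpo replicate 2 lay within the Cre range and the other Flpo livers above it. The log2 fold change was 1.44 (SE 0.46, adjusted p = 0.0464) in Flpo against Cre livers, and -1.05 (SE 0.48, adjusted p = 0.183) in Cre against GFP livers.

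Tk1, the thymidine salvage kinase whose message peaks in S phase (chr11:117815526-117826092, minus strand), spanned 7.60 to 17.0 CPM in Flpo livers with a median of 13.8. In Cre livers it was 9.08, 5.89, 9.03, 8.87 and 2.83 CPM, and in GFP livers 7.89, 9.01, 8.28, 10.6 and 18.5 CPM. Flpo replicate 1 lay within the Cre range and the other 5 Flpo livers lay above it. The log2 fold change in Flpo against Cre livers was 0.92 (SE 0.29, adjusted p = 0.0444). The calls of Tk1 and Mcm5 each held in 13 of 26 alternatives, with an adjusted p of 0.00854 to 0.163 for Tk1 and 0.0155 to 0.13 for Mcm5. Tk1 overlaps the start of Afmid on the other strand by 169 bases, and Afmid was also higher in Flpo than in Cre livers (log2 fold change 0.56, SE 0.17, adjusted p = 0.0398). Tk1 also lies wholly within the annotated gene Gm20708 on the other strand. Without strand, reads of these genes cannot be told apart where they overlap.

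The other MCM subunits, none called, had log2 fold changes in Flpo against Cre livers of 0.48 for Mcm2 (SE 0.26), 0.48 for Mcm3 (SE 0.35), 0.37 for Mcm4 (SE 0.25), 0.50 for Mcm6 (SE 0.24) and -0.21 for Mcm7 (SE 0.13). Mcm7 was also the highest subunit by level, at 5.004 TPM over all livers, with Mcm5 the lowest at 0.578 TPM. Cdc45, which joins the helicase when origins fire, averaged 1.12 ± 0.266 CPM in Flpo livers (SD, n = 6), 0.618 ± 0.118 CPM in Cre livers and 0.657 ± 0.273 CPM in GFP livers (SD, n = 5 each). Its log2 fold change in Flpo against Cre livers was 0.86 (SE 0.31, adjusted p = 0.0804), which did not pass. Rrm2, the regulated subunit of ribonucleotide reductase, had 0.75 (SE 0.29, adjusted p = 0.0949), while Rrm1, the larger subunit, had 0.16 (SE 0.17, adjusted p = 0.598). Pcna held to 21.3 ± 0.807 CPM in Flpo livers, 20.2 ± 2.65 CPM in Cre livers and 19.7 ± 1.58 CPM in GFP livers, with a log2 fold change of 0.08 (SE 0.09) in Flpo against Cre livers. Cdt1, which loads the helicase, and Tyms, which makes thymidylate, had -0.27 (SE 0.28) and 0.30 (SE 0.23) in that comparison.

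Among the mitosis members, Birc5 was called. It encodes survivin, a subunit of the chromosomal passenger complex (chr11:117849251-117855743, plus strand). In Flpo livers it spanned 0.578 to 1.09 CPM with a median of 0.679. In Cre livers it was 0.143, 0.287, 0.186, 0.120 and 0.510 CPM, and in GFP livers 0.666, 0.375, 1.18, 0.945 and 0.551 CPM. All Flpo livers lay above all Cre livers, and Cre replicate 5 overlapped the lowest GFP liver. The depth behind these levels was 18.6 to 34.1 counts per Flpo library, 3.61 to 13.1 per Cre library and 10.6 to 34.04 per GFP library. Birc5 was higher in Flpo than in Cre livers by a log2 fold change of 1.55 (SE 0.42, adjusted p = 0.0202; called in 21 of 25 alternatives). It fell in Cre against GFP livers with a log2 fold change of -1.58 (SE 0.43, adjusted p = 0.0285; called in 17 of 25). The call in Cre against GFP livers was lost when GFP replicate 3 or 4, or Cre replicate 1, 3 or 4, was left out, with an adjusted p of 0.00337 to 0.0777 over its alternatives. Leaving out Cre replicate 1 or 3, or Flpo replicate 5, ended the call in Flpo against Cre livers, where the adjusted p ran between 0.00132 and 0.0532.

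Most other tested mitosis members had estimates in the same direction without a call. In Flpo against Cre livers, Foxm1, the transcription factor of the mitosis program, had a log2 fold change of 1.93 (SE 0.66, adjusted p = 0.0605). Mki67 had 0.82 (SE 0.28, adjusted p = 0.0617), with 1.36 ± 0.350 CPM in Flpo livers (SD, n = 6), 0.766 ± 0.267 CPM in Cre livers and 1.04 ± 0.159 CPM in GFP livers (SD, n = 5 each). Ccnb1, the main mitotic cyclin, had 1.66 (SE 0.71, adjusted p = 0.135) and was at 0 counts in Cre replicate 4. Ccnb2 had 0.89 (SE 0.50, adjusted p = 0.268), and Cdk1, the partner of both, had 0.41 (SE 0.41, adjusted p = 0.57). Ccna2 (cyclin A2) at -0.06 (SE 0.41) and Aurka at -0.12 (SE 0.28) were the tested ones with a negative estimate. Tacc3, a spindle protein that Aurora A phosphorylates, had 0.47 (SE 0.29). Top2a, which untangles chromosomes, and Cdc20, which activates the anaphase-promoting complex, had 0.58 (SE 0.62) and 0.44 (SE 0.51). Of the untested mitosis members, Aurkb, the kinase of the same complex as survivin, ranged over 0.136 to 0.402 CPM in Flpo livers, 0.0373 to 0.120 in Cre livers and 0.0972 to 0.800 in GFP livers. Plk1, a kinase of mitotic entry, ranged over 0.0609 to 0.447, 0.107 to 1.41 and 0.0317 to 0.324 CPM in Flpo, Cre and GFP livers, with its highest level in a Cre liver.

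Estimates were also set side by side by phase. The median log2 fold change in Flpo against Cre livers was -0.15 over 10 tested G1 members, 0.48 over 13 S phase members and 0.58 over 11 mitosis members, with 0.00 over all genes. Estimates below 0 numbered 6 of 10 for G1, 2 of 13 for S phase and 2 of 11 for mitosis, beside 50.6% of all genes. In Cre against GFP livers the medians were 0.04 for G1, -0.19 for S phase and -0.44 for mitosis. There, 5 of 10, 9 of 13 and 9 of 11 estimates were below 0, beside 49.8% of all genes. The medians are descriptions of lists chosen with these data known, and the difference between phases was not tested. The G1 list holds the inhibitors Cdkn1a, Cdkn1b and Cdkn2c and the repressors E2f7 (not tested) and E2f8. These stand beside genes that drive entry into S phase, so the G1 median and the G1 sum below mix both kinds. Scaling by library totals shifted the median of all genes by -0.14 in Cre against GFP livers and by 0.13 in Flpo against Cre livers, and the G1, S phase and mitosis medians in Cre against GFP livers were then -0.11, -0.32 and -0.58. The sign of the G1 median thus turned with scaling in Cre against GFP livers. In Flpo against Cre livers it was positive by limma on log2(TPM + 1), at 0.05, and on log2(TPM + 0.1), at 0.10, where test, scaling and transformation all differ.

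Summed levels were compared liver by liver. On TPM with TMM scaling, S phase members summed to 53.2 to 65.6 in Flpo livers, 38.5 to 52.5 in Cre livers and 44.3 to 64.5 in GFP livers, so Flpo and Cre livers did not overlap. Pcna and Tk1 carry most of that sum. Mitosis members summed to 5.82 to 7.33 in Flpo livers, 3.85 to 6.30 in Cre livers and 4.91 to 7.15 in GFP livers, with Cre replicate 5 inside the Flpo range; without TMM scaling the same sums were 5.85 to 7.58, 3.46 to 5.76 and 4.85 to 7.56 and Flpo and Cre livers did not overlap. G1 members, led by Cdk4, Cdkn1a and Ccnd1, summed to 54.6 to 83.3, 68.2 to 141 and 64.9 to 85.8 in Flpo, Cre and GFP livers and overlapped in every pair. Counted by gene, a Flpo liver had 8 to 11 of the 15 mitosis members, tested or not, above that gene's median over all 16 livers, a Cre liver 2 to 6 and a GFP liver 5 to 11. For the S phase members these counts were 7 to 12, 3 to 8 and 4 to 10 in Flpo, Cre and GFP livers. For the G1 members they were 5 to 7, 3 to 7 and 2 to 8. Flpo and Cre livers thus overlapped by this count in S phase and G1. The lists were chosen with these data known. How often sums or counts of other gene sets part these groups was not tested.

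**Figure D4:**
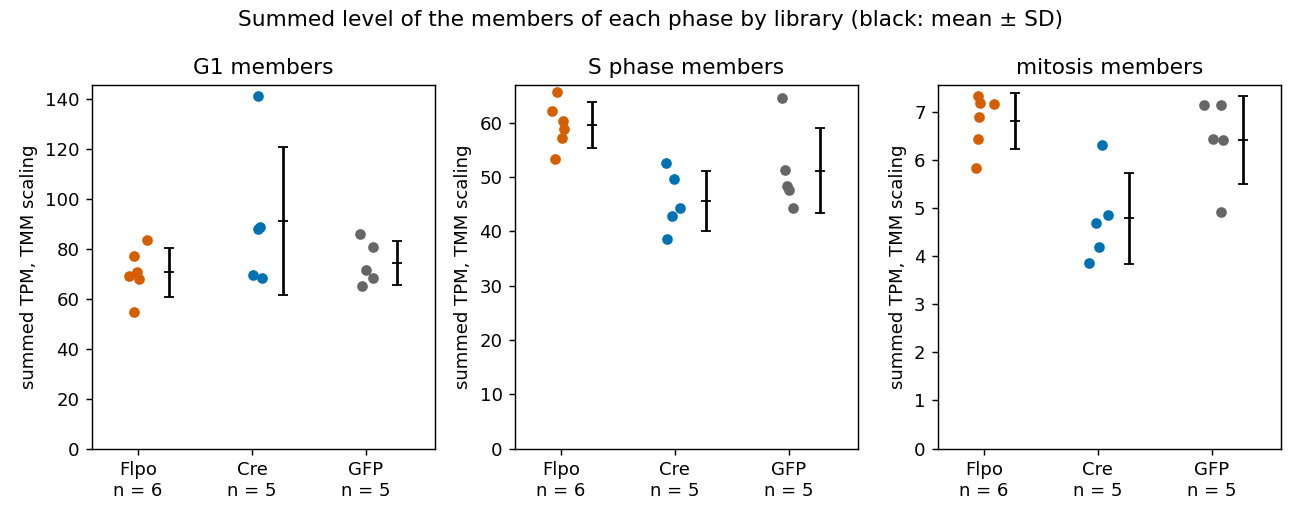
Summed level of the G1, S phase and mitosis members in each liver (TPM with TMM scaling), in Flpo (n = 6), Cre (n = 5) and GFP (n = 5) livers, with the mean ± SD in black. The S phase sum is 53.2 to 65.6 in Flpo livers and 38.5 to 52.5 in Cre livers.

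Flpo livers against GFP livers showed no called member by edgeR, DESeq2 or limma-voom. At an unadjusted p below 0.05 there were 4 of 34 members, beside 1353 of all 13905 genes tested. Of the 4, Ccne2, Cdc45 and Rrm1 were higher and Cdk4 lower. The medians were -0.05 for G1, 0.24 for S phase and 0.05 for mitosis, with -0.01 over all genes. These data do not show that the members were alike: an interval of 2 SE on each side spanned -0.65 to 0.39 for E2f1, -0.80 to 0.74 for Birc5 and -0.49 to 1.27 for Mcm5. For Ccne2 it spanned 0.45 to 1.91, which is not corrected for the number of genes. Unadjusted, Cre against GFP livers had 10 of 34 members (2 higher, 8 lower) and Flpo against Cre livers 12 of 34 (11 higher, 1 lower). Over all genes tested these counts were 3373 of 13905 (1559 higher, 1814 lower) and 3748 of 13905 (1899 higher, 1849 lower), in the same order.

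Of 133 other genes of the same pathways, 113 were tested. They gave 10 called in Cre against GFP livers (3 higher, 7 lower), 0 in Flpo against GFP livers and 18 in Flpo against Cre livers (10 higher, 8 lower). In Flpo against GFP livers 10 had an unadjusted p below 0.05, beside 1353 of all 13905 genes tested. The shares called, 8.85% in Cre against GFP livers and 15.9% in Flpo against Cre livers, lay near the 9.55% and 13.7% of all genes. These lists too were chosen with results of these data known. Among 35 tested DNA replication genes, 5 fell in Cre against GFP livers and none rose. Of all genes tested, 5.58% were called lower there and 3.97% higher. Gmnn (geminin, which blocks a further round of origin licensing) had a log2 fold change of -0.89 (SE 0.20, adjusted p = 0.0105), and Dut, which removes dUTP, had -0.64 (SE 0.15, adjusted p = 0.0126). Rpa2 and Rpa1, subunits of the single-strand binding complex, had -0.52 (SE 0.14) and -0.46 (SE 0.14). Gmnn was at 3.15, 2.08, 3.13, 2.29 and 2.75 CPM in Cre livers and at 4.98, 5.02, 5.18, 4.66 and 4.96 CPM in GFP livers, with no overlap. In Flpo against Cre livers 6 of these 35 rose and 1 fell, where 7.45% of all genes were called higher and 6.26% lower. There Gmnn had 1.13 (SE 0.20, adjusted p = 0.00108) and Mcm8 1.24 (SE 0.26, adjusted p = 0.00434). The histone chaperone subunit Chaf1a had 1.82 (SE 0.41, adjusted p = 0.00673) and Rpa1 0.56 (SE 0.14, adjusted p = 0.00955).

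Among 28 tested mitosis genes outside the 40, Spc24, a kinetochore subunit, was the one called in Cre against GFP livers (log2 fold change -0.94, SE 0.22, adjusted p = 0.0117), and it was higher in Flpo than in Cre livers by 1.17 (SE 0.21, adjusted p = 0.00143). Flpo livers against Cre livers had 4 of these 28 called, 2 higher and 2 lower, where 7.45% of all genes were called higher and 6.26% lower. Among 17 tested cyclins, kinases and inhibitors, Wee1, the kinase that holds Cdk1 inactive before mitosis, was 1 of 3 called in Flpo against Cre livers, with a log2 fold change of 2.30 (SE 0.41, adjusted p = 0.00152). Wee1 spanned 8.93 to 18.9 CPM in Flpo livers with a median of 18.3. It was 1.47, 2.84, 1.98, 8.78 and 1.61 CPM in Cre livers and 7.16, 6.18, 5.32, 8.67 and 11.4 CPM in GFP livers. All Flpo livers lay above all Cre livers, and Cre replicate 4 came close to the lowest of them. Cdk6 was lower in Cre than in GFP livers (log2 fold change -0.84, SE 0.23, adjusted p = 0.0275) and higher in Flpo than in Cre livers (0.81, SE 0.22, adjusted p = 0.0207). Ccnd3 was lower in Flpo than in Cre livers, with a log2 fold change of -0.60 (SE 0.12, adjusted p = 0.00221). Ccnf rose in Cre against GFP livers by 0.90 (SE 0.24, adjusted p = 0.0281). It spanned 16.2 to 43.4 CPM in Cre livers with a median of 19.0, and 9.25 to 19.8 CPM in GFP livers. The 2 groups thus overlapped, and Cre replicate 5 held the highest level.

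**Figure D5:**
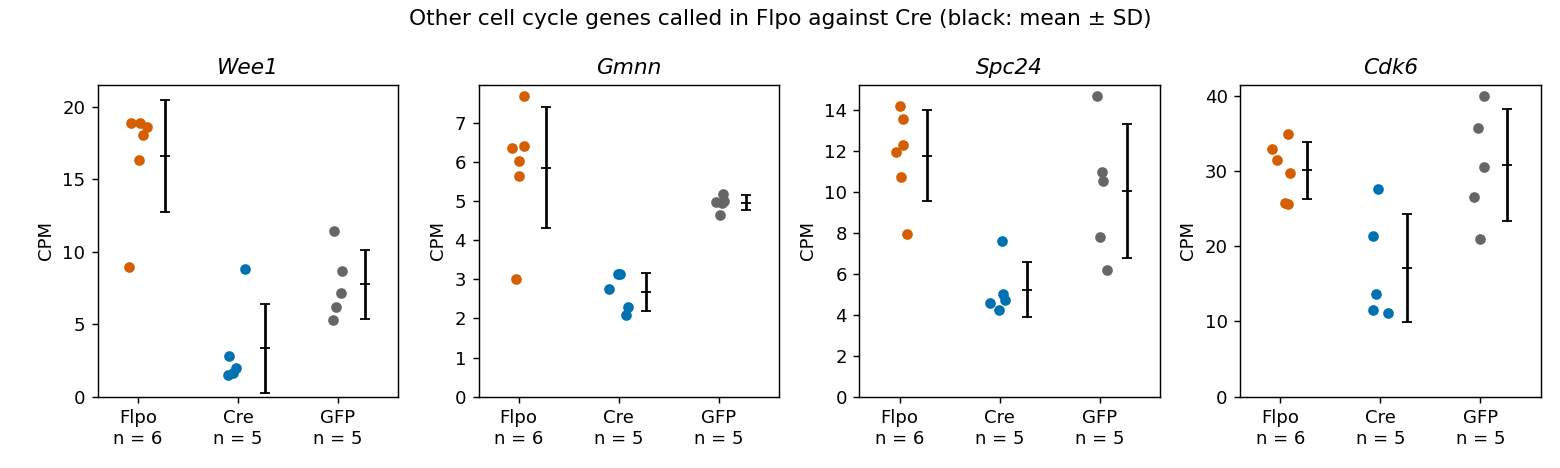
CPM of 4 called genes outside the 40 in Flpo (n = 6), Cre (n = 5) and GFP (n = 5) livers, with 1 point per library and the mean ± SD in black. Wee1 lies at 8.93 CPM or above in every Flpo liver and at 8.78 CPM or below in every Cre liver.

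Of 16 tested p53 and checkpoint genes, Trp53 and Gadd45g rose in Cre against GFP livers, by 0.40 (SE 0.11, adjusted p = 0.0287) and 1.37 (SE 0.42, adjusted p = 0.0497), where 3.97% of all genes were called higher, and 1 of 16 estimates was below 0. In Flpo against Cre livers 4 of 16 fell and none rose, where 6.26% of all genes were called lower, among them the p53 target Phlda3 at -1.005 (SE 0.26, adjusted p = 0.0139) and Trp53 at -0.39 (SE 0.10, adjusted p = 0.0182). Of 17 tested E2F, RB and DREAM genes outside the 40, none was called in any comparison by edgeR. At an unadjusted p below 0.05 there were 2 in Cre against GFP livers, 1 in Flpo against GFP livers and 1 in Flpo against Cre livers. Over all 13905 genes tested these counts were 3373, 1353 and 3748, in the same order.

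Some markers of other cells and clock genes also differed between the groups, and their part in the differences above was not tested. Of 9 stellate cell markers, 4 were called lower in Cre than in GFP livers, where 5.58% of all genes were called lower. In Flpo against Cre livers 5 were called higher, where 7.45% of all genes were called higher. The stellate cell markers summed to 106 to 156 TPM in Flpo livers, 48.8 to 95.4 TPM in Cre livers and 84.9 to 143 TPM in GFP livers. No Kupffer cell marker of 10 was called by edgeR. At an unadjusted p below 0.05 there were 4 in Flpo against Cre livers and 0 in Cre against GFP livers, where all 13905 genes tested had 3748 and 3373. The Kupffer cell markers summed to 123 to 314, 121 to 171 and 142 to 237 TPM in Flpo, Cre and GFP livers. Erythroid markers summed to 1129 to 2719, 1283 to 1975 and 1775 to 4146 TPM in the same order. In Cre against GFP livers 1 of 5 tested erythroid markers, Hbb-bs, was called lower, where 5.58% of all genes were called lower. None of the 5 was called in Flpo against GFP or Flpo against Cre livers, and all 5 estimates were below 0 in both. At an unadjusted p below 0.05, 4 of 5 were lower in Cre against GFP livers and 4 of 5 in Flpo against GFP livers. All 13905 genes tested had 1814 and 708 lower at that threshold. Among 11 lymphocyte, 8 endothelial and 5 cholangiocyte markers tested, 1 of each was called higher in Cre than in GFP livers and none lower. These were Cd4, Kdr and Sox9, and 3.97% of all genes were called higher there. Each was called lower in Flpo than in Cre livers, while Spp1, a cholangiocyte and recruited macrophage marker, was called higher. Of 7 recruited macrophage markers, Cx3cr1 was called lower in Cre than in GFP livers, and Cd9 lower in Flpo than in Cre livers. Of 8 hepatocyte markers, Apoa1 was called higher and Ttr lower in Cre than in GFP livers. Apoa1 was also called lower in Flpo than in Cre livers. Of 16 clock genes, 12 were called in Flpo against Cre livers (8 higher, 4 lower), where 13.7% of all genes were called. In Cre against GFP livers 3 were called, all lower, where 5.58% of all genes were called lower. Dbp, a clock output factor, had a log2 fold change of 1.47 (SE 0.32, adjusted p = 0.00595) in Flpo against Cre livers. The 4 lower were Arntl (-2.22, SE 0.34), Nr1d1 (-1.23, SE 0.29), Nfil3 (-0.97, SE 0.17) and Clock (-0.61, SE 0.16). The clock genes summed to 260 to 310, 126 to 260 and 215 to 255 TPM in Flpo, Cre and GFP livers. With TMM scaling the sums were 252 to 296, 138 to 263 and 208 to 243, and Flpo and Cre livers overlapped. Either sum mixes genes that moved in opposite directions. No marker of these lists was at 0 in every library. Library numbers in the titles run in blocks by group, so any step taken in that order cannot be told apart from the groups.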

How the data were processed

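Liver RNA was poly(A)-enriched and sequenced in pairs of 150-base reads, per the labels' protocols. Reads passed through cutadapt and STAR on mm10, per the submitters' processing notes; which program and annotation gave the counts, and whether strand was used, is not given in the sources used here. The authors deposited estimated counts per gene, of which 31.7% were not whole numbers, and these were rounded. The TPM values are also those the authors deposited, and the 2 tables agree: counts equalled TPM times a gene factor and a library factor in 10835 genes checked, to within 1.07e-09 (log2).

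Genes with enough counts by edgeR's filterByExpr (minimum count 10) were kept, 13905 in all. One edgeR quasi-likelihood model (edgeR 4.0.16, limma 3.58.1, R 4.3.3) with TMM scaling was fitted to the 16 libraries, and 3 contrasts were tested with Benjamini-Hochberg adjustment at 0.05. SE is the log2 fold change over the root of its F statistic. CPM uses TMM-scaled library sizes. Error on counts and totals covers counting and sample spread only. No pair of libraries agreed within sampling noise. Alternatives, 26 where all could be fitted, were other scalings, filters, DESeq2 1.42.0, limma-voom, limma on log2(TPM + 1) and log2(TPM + 0.1), fits of 2 groups, a replicate block and leaving out each library. The model was also run on counts simulated from its own fitted spread, which cannot show that the model suits these data. Gene coordinates are from GENCODE on GRCm38, the build of the reads.

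The text names all 40 members, and from other cell cycle lists the genes called, up to 10 per comparison by adjusted p; 1 of these is not reported here. The members, lists and tests were chosen with earlier results of these data known.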

Additional observations from a re-analysis of the deposited data

Results flagged for a closer look

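There were 129 sets of values, 1 for each member and for each phase's summed level in each group. Of these, 14, all of single members, had a library set apart from the rest of its group by Dixon's criterion at 95%. For normally distributed values chance alone gives about 1 in 20. The values here were not log-transformed and several rest on few reads, so that rate need not hold. Values are CPM, each with the nearest other library of the same group. In Flpo livers the highest library stood apart for Ccne2 (4.72, next 2.45), Cdkn1b (18.1, next 17.0), E2f7 (0.653, next 0.136), Cdt1 (2.82, next 1.74) and Ccna2 (1.17, next 0.653). It did so too for Cdk1 (1.60, next 0.825), Foxm1 (0.962, next 0.383), Birc5 (1.09, next 0.756) and Bub1 (0.650, next 0.136). In Cre livers Cdkn1a had 105 (next 42.8) at the top, and Ccnb1 had 0 (next 0.112) at the bottom. In GFP livers Tk1 reached 18.5 (next 10.6) and Mybl2 1.04 (next 0.228), and Mcm7 was lowest at 6.54 (next 9.52). The libraries concerned differ between genes: for Ccne2 it was Flpo replicate 3, for Cdt1 and Foxm1 Flpo replicate 2, and for Birc5 Flpo replicate 5.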

How the results depend on the processing

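No called member changed sign under any alternative. In Cre against GFP livers the 3 called members became 1 without a filter on low counts and 1 to 3 when a library was left out, and were 2 to 4 otherwise, apart from the replicate block below. The counts of 1 hold E2f1 alone, and leaving out GFP replicate 3 or 4 or Cre replicate 1, 3 or 4 gave such a count. In Flpo against GFP livers 0 members were called throughout. In Flpo against Cre livers the 6 became 10 with library totals alone and 2 to 7 when a library was left out (3 without Cre replicate 3 or 5 or Flpo replicate 3, 2 without Flpo replicate 5), and were 4 to 9 otherwise, again apart from the replicate block.

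The replicate numbers did not pair the samples: 15 correlations of same-numbered libraries ran between -0.1911 and 0.1688, 1 above 0.1, and 5 of 16 libraries correlated best with their own number. With a replicate block, which drops Flpo replicate 6, 1 member was called in Cre against GFP livers (E2f1), 2 in Flpo against Cre livers (E2f1 and Ccne2) and 0 in Flpo against GFP livers.

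Over all genes, Cre against GFP livers had 1328 calls, 834 with those groups alone, 2104 on log2(TPM + 1) and 2172 on log2(TPM + 0.1). Flpo against GFP livers had 4 calls, 72 by DESeq2, 2 by limma-voom, 1 with those groups alone, 0 with the block and 0 to 15 when a library was left out. Higher and lower calls split as 552 and 776 in Cre against GFP livers, but 300 and 1656 with library totals, 216 and 1888 on log2(TPM + 1), and 213 and 1959 on log2(TPM + 0.1). In Flpo against Cre livers they were 1036 and 870, but 1810 and 454, 2417 and 326, and 2479 and 324 in the same order of settings. The cause of these shifts was not tested. Low counts limit the mitosis members most.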
